A study of Mus musculus with 8 samples.

Results

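Replication-dependent histone genes were read by 44 of the 41174 gene probes on the array, taken as every non-control probe whose deposited gene name starts with Hist, a cluster number from 1 to 4 and h. These probes name 34 genes. By histone type there were 8 probes for 6 genes of linker histone H1, 15 for 11 genes of H2A, 10 for 8 genes of H2B, 3 for 3 genes of H3 and 8 for 6 genes of H4. The Hist1 cluster on chromosome 13 held 30 of the probes, the Hist2 cluster on chromosome 3 held 7, the Hist3 cluster on chromosome 11 held 5 and Hist4h4 on chromosome 6 held 2.

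The germ cell protein DAZL, which binds mRNA, was precipitated with its RNA under native conditions (immunoprecipitation, IP, with no ultraviolet crosslinking), and the RNA was read on 1-colour arrays. The cells were in vitro primordial germ cells, derived from the embryonic stem line V6.5 (strain label C57BL/6 129SV mixed), and carried a Dazl-GFP-V5 fusion. Feeder cells were first depleted on tissue culture plastic, and the cells were harvested after 12 days of differentiation. The 4 groups of 2 arrays were input (total RNA, no antibody), mock IP (normal mouse IgG), V5 IP (anti-V5) and GFP IP (anti-GFP), so control cells carried the tagged DAZL as well. How the fusion gene is driven, how many clones were used and whether the 2 replicates were separate cultures are not given in the sources used here. The p-values then reflect array-to-array spread that could be technical. RNA abundance, recovery and the number of cells of a type cannot be told apart in such bulk samples.

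As background, replication-dependent histone genes supply the bulk of H1 and of the core histones H2A, H2B, H3 and H4 while DNA is copied in S phase. They lie in clusters, have no introns, and their mRNAs mostly end in a conserved stem-loop instead of a poly(A) tail. That stem-loop is bound by SLBP, which guides the cleavage of the transcript and its translation. Coding sequences within a type are nearly the same from copy to copy. Probe sequences were not used here, so how far probes of 1 type read each other's transcripts was not tested, nor was whether the probes read tailed or tail-less transcripts.

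Levels are given as log2 of the processed intensity minus the 75th percentile of the gene probes of the same array, which lay at 352 on mock 1, at 767 on mock 2 and between 641 and 1130 on the other arrays. Between 61.3% and 70.5% of gene probes were well above background. Slide 1 carried replicate 1 of all groups and slide 2 carried replicate 2, so a difference within a slide is a difference within a replicate number. Of 11 germ cell marker genes found, all 11 were well above background in every group. Marker sums are the log2 of intensities added over a list's probes, so the brightest probes weigh most. The germ cell sum was 6.19 to 6.37 in input, 5.85 to 6.21 in the mock IP, 7.27 to 8.02 in the V5 IP and 7.44 to 8.01 in the GFP IP. By limma 5 of its 12 probes rose and 1 fell against input with each antibody (13.9% and 13.6% of all probes in the V5 IP, 15.6% and 16.6% in the GFP IP). Pou5f1, Mael and Nanos3 read lower on each DAZL IP array than on each input array. Of 6 fibroblast markers, 6 were well above background in input and 5 in each other group (all but Lum, seen on 1 of 2 V5 arrays), with a summed level of 3.36 to 3.64 in input, 3.19 to 4.42 in the mock IP, 2.35 to 2.75 in the V5 IP and 2.25 to 2.56 in the GFP IP. Of 4 neural markers 3 passed in each group (all but Neurod1). The neural sum was 1.54 to 2.30 in input, 2.57 to 2.61 in the mock IP, 3.19 to 4.31 in the V5 IP and 3.32 to 4.21 in the GFP IP. Tubb3 was its brightest probe, and Sox1 overlapped between input and the V5 IP. Of 5 mesoderm markers, 4 passed in input, 3 in the mock IP, 4 in the V5 IP and 2 in the GFP IP, with sums between -0.87 and -0.18 in the controls and between -1.55 and -1.29 in the IPs. For 5 endoderm markers, of which Ttr was at background throughout and 4 passed in each group, the sums were 0.24 to 1.44 in the controls and 0.16 to 0.68 in the IPs, and for 4 blood and endothelial markers, of which Ptprc was at background throughout, 1.08 to 1.81 and 1.72 to 2.56, with 3 passing in each control and 2 in each IP. The part of these markers in the histone values was not tested. Both probes of the targeted gene, Dazl, were higher than in the mock IP: by 8.55-fold and 6.19-fold with anti-V5, and by 10.1-fold and 6.56-fold with anti-GFP (limma adjusted p from 0.00224 to 0.00554). Part of this gap lay in the mock IP, which read below input. The first probe read 0.05 and -0.14 in input, -2.83 and -2.17 in the mock IP, 0.38 and 0.82 in the V5 IP, and 0.63 and 1.04 in the GFP IP. The second read 2.93 and 2.83, 1.06 and 2.05, 4.04 and 4.32, and 3.90 and 4.63 in that order. Of the 3 probes of Dazl and Slbp, 2 rose over input with each antibody.

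Of the 44 histone probes, 38 stood well above background on each array of 1 or more groups and were tested, and 34 of these did so in all 4 groups. The 4 others passed in some groups only: Hist1h1t and 1 probe of Hist1h2bc (A_52_P559748, also seen on 1 V5 array) in input only, Hist1h2ae in input and mock IP, and 1 probe of Hist2h2aa2 (A_52_P571832) in input, V5 IP and GFP IP. Not tested were 2 probes of Hist1h1d and 1 each of Hist1h2ac, Hist2h2aa2, Hist1h2be and Hist4h4, 4 of which were not well above background on any array. None of the 44 was saturated. Counts over the 38 leave these 6 out and do not speak for all 44 probes.

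Most histone probes read lower in both DAZL IPs than in the mock IP, and a small set read higher. In V5 IP 14 of the 38 tested probes fell and 4 rose, against 17.1% and 15.3% of all 28104 tested probes (limma, adjusted p under 0.05). In GFP IP 26 fell and 5 rose, against 22.5% and 17.1% of all probes. The median log2 fold change of the 38 probes was -0.92 in the V5 IP and -1.11 in the GFP IP, against -0.36 over all tested probes in each. Negative values were found for 32 of the 38 in the V5 IP, or 84.2% against 63.6% of all probes, and for 33 in the GFP IP, or 86.8% against 62.9%. All 14 probes that fell in the V5 IP also fell in the GFP IP, and all 4 that rose in the V5 IP rose in the GFP IP, but both comparisons use the same mock arrays.

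The replicate numbers and the arrays bore on these counts. With the replicate number, which is also the slide, as a block, 28 fell and 5 rose in the V5 IP (33.2% and 20.8% of all probes), and 29 fell and 5 rose in the GFP IP (35.7% and 22.3%). Both arrays of the V5 IP lay below both of the mock IP for 30 histone probes (43.2% of all probes) and above them for 6 (24.4%), and in the GFP IP for 30 (44.6%) and 5 (25.8%). The median was -1.23 on slide 1 and -0.59 on slide 2 in the V5 IP, against -0.42 and -0.29 over all probes, and -1.46 and -0.80 in the GFP IP, against -0.41 and -0.31. Calls were lost when single arrays were left out, mock 1 among them. They were also lost when an input array was, although input is in neither comparison. Without mock 1, 1 fell and 0 rose in the V5 IP (0.829% and 6.21% of all probes, and 6 and 4 histone probes at an unadjusted p under 0.05), and 3 fell and 0 rose in the GFP IP (4.12% and 8.96%, and 21 and 4). The probe that still fell in the V5 IP was Hist1h1e, and those that still fell in the GFP IP were Hist1h1b, Hist1h1e and Hist1h3a, so every other call of a histone probe against the mock IP was lost without mock 1. Leaving out any other array also moved the counts of histone probes called, and the share of all probes called moved too. Such counts are therefore not read as a trait of the histone probes. The median of each histone type, relative to that of all probes, kept its sign with each array left out. After normexp background correction of the mean spot signal, 1 fell and 0 rose with each antibody (0.0178% and 4.36% of all probes in the V5 IP, 0.281% and 4.52% in the GFP IP), while 16 and 24 fell and 3 and 3 rose at an unadjusted p under 0.05.

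**Figure D1:**
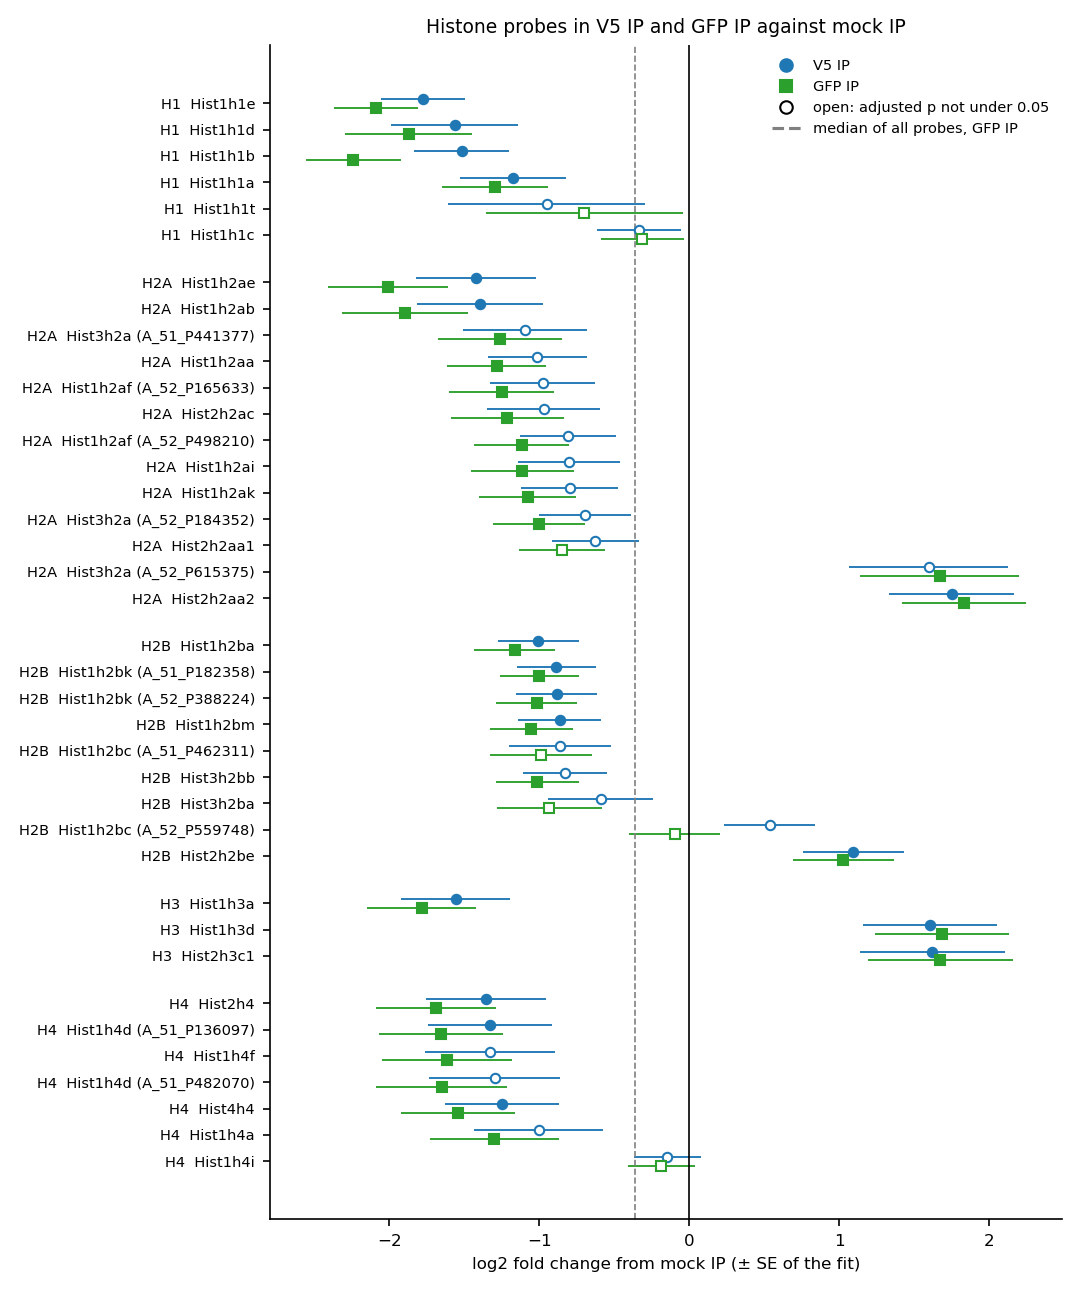
Log2 fold change of each of the 38 tested histone probes from the mock IP, in the V5 IP (circles) and GFP IP (squares), grouped by histone type, with bars for the standard error of the fit and open symbols where the adjusted p was not under 0.05. Most points lie left of the dashed median of all probes in the GFP IP (-0.36), and Hist1h3d, Hist2h3c1, Hist2h2be, Hist2h2aa2 and 1 probe of Hist3h2a lie between 1.03 and 1.83 to the right of 0.

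Linker histone probes read lower in both IPs. Of 6 tested H1 probes, 4 fell with each antibody and none rose, with a median log2 fold change of -1.34 in the V5 IP and -1.58 in the GFP IP. Of all probes, 17.1% fell and 15.3% rose in the V5 IP, and 22.5% and 17.1% in the GFP IP. Linker histones bind the DNA between nucleosomes, and Hist1h1a to Hist1h1e code for the somatic subtypes. Hist1h1e (now H1f4) read 0.93 and 0.40 in the mock IP, -0.54 and -0.43 in input, -0.94 and -1.28 in the V5 IP, and -1.27 and -1.57 in the GFP IP. Both mock arrays were thus the highest of the 8 and all 4 DAZL IP arrays the lowest, with no overlap. Part of the gap between them lay in the mock IP, which read above input (log2 1.15, limma adjusted p = 0.0463). The difference of the V5 IP from input, log2 -0.62, did not pass (adjusted p = 0.136), whereas the probe fell against input in the GFP IP. Against the mock IP, Hist1h1e fell 3.42-fold in the V5 IP (log2 -1.77, standard error 0.28, adjusted p = 0.00676). In the GFP IP 4.25-fold lower levels were found (-2.09 ± 0.28, adjusted p = 0.00348). Within slides the differences were -1.87 and -1.68 in the V5 IP and -2.21 and -1.97 in the GFP IP. It kept its call in all 8 fits that left out 1 array and was the only histone probe that fell with normexp (adjusted p = 0.0430 in the V5 IP and 0.0378 in the GFP IP).

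Hist1h1b (H1f5) read -0.27 and -1.05 in the mock IP, -0.98 and -0.52 in input, -2.18 and -2.17 in the V5 IP, and -2.82 and -2.98 in the GFP IP. Its V5 arrays lay between the controls and the GFP arrays without touching either. It fell 2.86-fold in the V5 IP (adjusted p = 0.0179, lost without mock 1 or V5 1) and 4.73-fold in the GFP IP (adjusted p = 0.00419, kept without each of the 8 arrays). Its V5 and GFP levels differed by 0.73, the widest gap between the antibodies among the 38 probes, and that difference did not pass. Hist1h1d (H1f3, probe A_52_P10683) fell by 1.56 and 1.87 (log2), and Hist1h1a (H1f1) by 1.17 and 1.30 (log2). Their calls held in 3 and 1 of the 8 fits with an array left out in the V5 IP, and in 5 and 3 in the GFP IP.

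Hist1h1c and Hist1h1t stood apart from those 4. Hist1h1c (H1f2) read 3.15 and 3.14 in the mock IP, 2.75 and 2.86 in the V5 IP, 2.60 and 3.06 in the GFP IP, and 1.28 and 1.80 in input. All 6 IP arrays, mock included, lay above both input arrays. The log2 difference from the mock IP was -0.33 ± 0.28 in the V5 IP (adjusted p = 0.370) and -0.31 ± 0.28 in the GFP IP (adjusted p = 0.396), and neither passed. Against input it was higher in the mock IP (log2 1.60, adjusted p = 0.0278), in the V5 IP (1.27, adjusted p = 0.0166) and in the GFP IP (1.29, adjusted p = 0.0133). These calls were kept in 5, 4 and 6 of the 8 fits with an array left out. Hist1h1t (H1f6), the H1 subtype of the male germ line, was well above background in input only, at -5.71 and -5.65, and differed from the mock IP in neither IP.

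**Figure D2:**
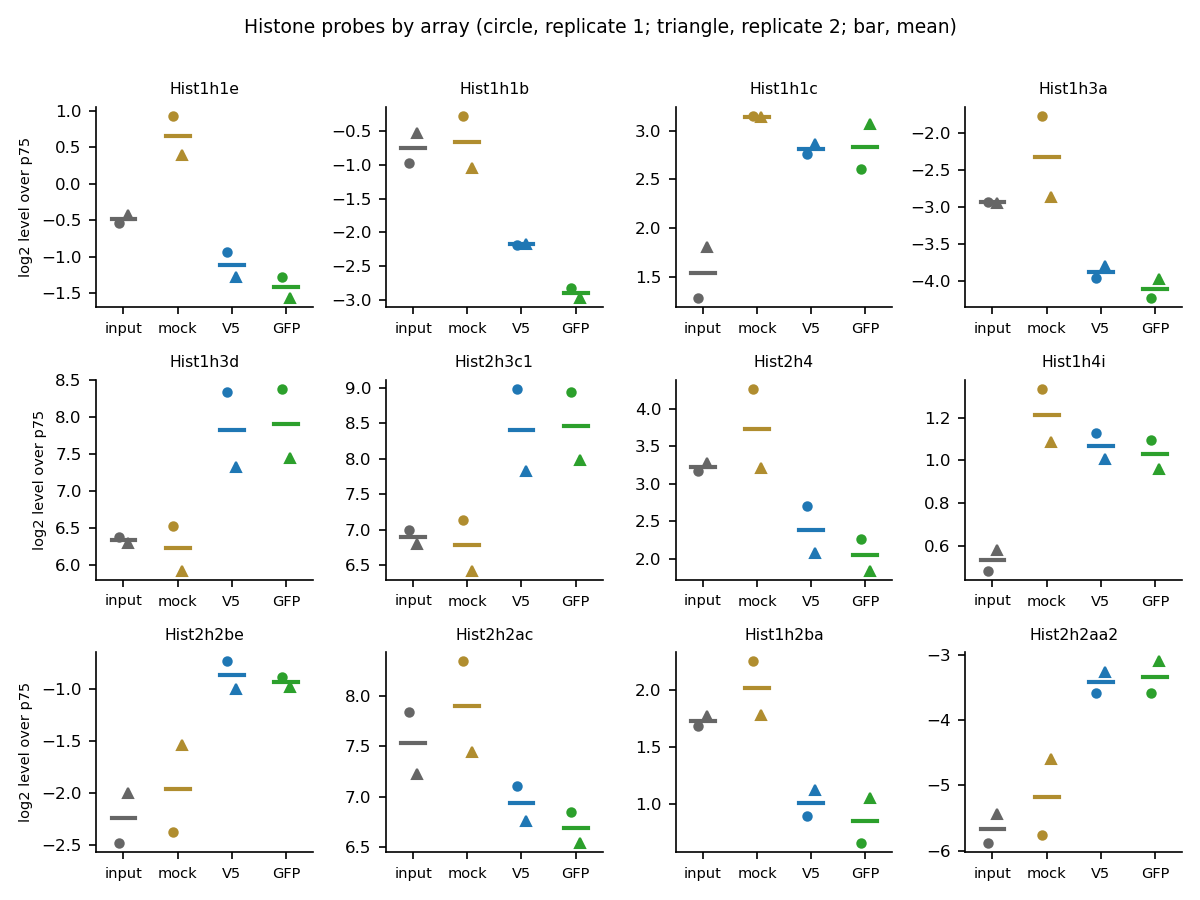
Level of 12 histone probes on each array, on the log2 scale relative to the array's 75th percentile (p75), with replicate 1 as a circle, replicate 2 as a triangle and the group mean as a bar. Hist1h1e, Hist1h1b, Hist1h3a, Hist2h4 and Hist1h2ba are lowest in the DAZL IPs, Hist1h3d, Hist2h3c1, Hist2h2be and Hist2h2aa2 are highest there, Hist2h2ac is lowest in the GFP IP, and Hist1h1c and Hist1h4i are lowest in input.

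The H3 probes split. H3 is the core histone whose tail carries many of the best known marks, and Hist1h3d and Hist2h3c1 code for replication-dependent H3 in different clusters. Hist1h3d (H3c4) read 8.34 and 7.33 in the V5 IP and 8.39 and 7.44 in the GFP IP, against 6.53 and 5.92 in the mock IP and 6.38 and 6.29 in input. The DAZL IP arrays lay above all 4 control arrays, and replicate 1 of each DAZL IP lay about 1 log2 unit above replicate 2. It rose 3.05-fold in the V5 IP (log2 1.61 ± 0.45, adjusted p = 0.0345) and 3.22-fold in the GFP IP (1.69 ± 0.45, adjusted p = 0.0244), with differences of 1.80 and 1.41 and of 1.86 and 1.52 within slides. Hist2h3c1 (H3c14) read 8.99 and 7.82 in the V5 IP, 8.93 and 7.99 in the GFP IP, 7.14 and 6.42 in the mock IP, and 6.99 and 6.81 in input. It rose 3.08-fold (adjusted p = 0.0410) and 3.20-fold (adjusted p = 0.0315). Once each probe was centred on its own mean, the pair of patterns differed by at most 0.09 on any of the 8 arrays. Both calls were kept in 3 of the 8 fits with an array left out in each comparison, of which none was without mock 1. After normexp the log2 fold changes were 1.65 and 1.61 for Hist1h3d and 1.64 and 1.57 for Hist2h3c1, and none passed (adjusted p of 0.121 and 0.126 in the V5 IP).

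Hist1h3a (H3c1) went the other way. It read -1.77 and -2.87 in the mock IP, -2.93 and -2.94 in input, -3.95 and -3.80 in the V5 IP, and -4.23 and -3.98 in the GFP IP. The DAZL IP arrays lay below the controls without overlap, and mock 1 stood about 1 unit above the other control arrays. It fell 2.94-fold in the V5 IP (adjusted p = 0.0234) and 3.44-fold in the GFP IP (adjusted p = 0.0125), and these calls held in 3 and 7 of the 8 fits with an array left out. Without mock 1 the V5 call was lost and the GFP call was kept, and without GFP 1 the GFP call was lost. The difference was -2.18 on slide 1 and -0.93 on slide 2 in the V5 IP, and -2.46 and -1.11 in the GFP IP.

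The upstream sequences of Hist1h3d and Hist2h3c1 are shown because these genes, on different chromosomes, gave nearly the same pattern. Both are the 250 bases before the gene start from the RefSeq promoter table of GRCm38.p6, printed 5′ to 3′ on the coding strand, with capitals for the CCAAT box (letters CCAAT), the TATA box (letters TATAAA) and the octamer (letters ATTTGCAT), each searched on both strands and free to overlap.
Hist1h3d, chr13:23575513-23575762, plus strand: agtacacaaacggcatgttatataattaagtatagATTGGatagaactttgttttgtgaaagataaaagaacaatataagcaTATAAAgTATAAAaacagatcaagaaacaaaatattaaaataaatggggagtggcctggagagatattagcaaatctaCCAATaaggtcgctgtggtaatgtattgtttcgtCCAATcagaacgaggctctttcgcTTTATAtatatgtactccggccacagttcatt
Hist2h3c1, chr3:96246435-96246684, plus strand: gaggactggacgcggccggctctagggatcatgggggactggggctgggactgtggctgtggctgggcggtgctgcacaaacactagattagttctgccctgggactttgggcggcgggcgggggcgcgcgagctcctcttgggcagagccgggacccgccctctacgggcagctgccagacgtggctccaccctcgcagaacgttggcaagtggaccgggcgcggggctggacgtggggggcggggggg
The Hist1h3d window held 3 matches to CCAAT and 3 to TATAAA, and the Hist2h3c1 window held none of them. A promoter window was found for 29 of the 34 genes, with 30 windows in all, and CCAAT occurred in 86.7% of these against 33.8% of the 32851 promoter windows in the table. TATAAA occurred in 53.3% against 12.4%, and ATTTGCAT, the octamer known from H2B promoters, in 33.3% against 1.60%. By type, ATTTGCAT was found in 6 of 11 H2A windows and 4 of 6 H2B windows and in none of the 6 H1, 2 H3 and 5 H4 windows. The counts used whole windows. Those of neighbouring genes can therefore share bases, and a window can run into the next gene, as that of Hist2h2ac did into Hist2h2be. A match is a description of the letters and not a site in use.

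H4, the most conserved core histone, read lower in both IPs. None of 7 tested H4 probes rose (15.3% of all probes did in the V5 IP and 17.1% in the GFP IP). In the V5 IP 3 fell (17.1% of all probes) and in the GFP IP 6 (22.5%). With the replicate block 6 fell in each (33.2% and 35.7% of all probes). The median log2 fold change was -1.30 in the V5 IP and -1.62 in the GFP IP. Hist2h4 (H4c14) read 4.27 and 3.20 in the mock IP, 3.16 and 3.28 in input, 2.70 and 2.07 in the V5 IP, and 2.26 and 1.84 in the GFP IP. Mock 1 was the highest array, and the DAZL IPs lay below all controls. Hist2h4 fell 2.55-fold in the V5 IP (adjusted p = 0.0405) and 3.22-fold in the GFP IP (adjusted p = 0.0184), with within-slide differences of -1.57 and -1.13 and of -2.01 and -1.36. Hist4h4 fell 2.38-fold and 2.91-fold (adjusted p = 0.0430 and 0.0201). Hist1h4a gave -1.0 ± 0.43 in the V5 IP (adjusted p = 0.105, or 0.0131 with the replicate block) and fell by 1.30 on the log2 scale in the GFP IP (adjusted p = 0.0472). Each of these H4 calls was lost without mock 1.

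Hist1h4i (H4c9) differed from the other H4 probes. It read 1.34 and 1.09 in the mock IP, 1.13 and 1.01 in the V5 IP, 1.10 and 0.96 in the GFP IP, and 0.48 and 0.58 in input. The IP and mock arrays overlapped, and all 6 lay above input. Its log2 difference from the mock IP was -0.14 ± 0.23 in the V5 IP (adjusted p = 0.634) and -0.18 ± 0.23 in the GFP IP (adjusted p = 0.535), and neither passed. Against input the differences were 0.68 in the mock IP, 0.54 in the V5 IP and 0.50 in the GFP IP, of which the first passed with the replicate block alone (adjusted p = 0.0360).

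H2A and H2B, which pair as a dimer in the nucleosome, had medians nearer 0 than H4 did. They held 3 of the 5 probes that rose in the GFP IP, and 13 and 9 of the 38 probes tested. Of 13 tested H2A probes 2 fell (15.4%) and 1 rose (7.69%) in the V5 IP, beside 17.1% and 15.3% of all probes. In the GFP IP 10 fell (76.9%) and 2 rose (15.4%), beside 22.5% and 17.1%. The medians were -0.81 and -1.12. With the replicate block, 10 fell and 2 rose in the V5 IP (33.2% and 20.8% of all probes). In the GFP IP 11 fell and 2 rose with the block (35.7% and 22.3%). Hist1h2ab (H2ac4) read 1.05 and -0.06 in the mock IP, -0.29 and 0.05 in input, -0.54 and -1.25 in the V5 IP, and -1.24 and -1.56 in the GFP IP. It fell 2.63-fold in the V5 IP (adjusted p = 0.0425, kept in 1 of 8 fits with an array left out) and 3.72-fold in the GFP IP (adjusted p = 0.0155, kept in 5). Hist1h2ae (H2ac8) was not well above background on any DAZL IP array and passed the filter through input and the mock IP only. It is among the probes counted as falling. The limma adjusted p-values of 0.0358 and 0.0121 come from its signals as measured and do not test a bound. As a bound, it fell at least 2.26-fold in the V5 IP and at least 1.98-fold in the GFP IP. The bound sets the mock mean against, on each DAZL IP array, the higher of the lowest signal well above background and the probe's own signal. The other H2A probes that read lower lay between -0.62 and -1.10 in the V5 IP, where none passed, and between -0.85 and -1.28 in the GFP IP, where Hist2h2aa1 was the only 1 of 9 that did not pass (adjusted p = 0.0520).

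The probes of Hist3h2a (H2aw) disagreed with each other. Probe A_52_P615375 read 3.46 and 2.13 in the V5 IP, 3.45 and 2.29 in the GFP IP, 1.48 and 0.92 in the mock IP, and 1.01 and 0.76 in input. Both IPs lay above all controls. It rose 3.19-fold in the GFP IP (adjusted p = 0.0417), and its 3.03-fold difference in the V5 IP did not pass (adjusted p = 0.0540) except with the replicate block (adjusted p = 0.00717). The other probes of that gene, A_51_P441377 and A_52_P184352, fell by 1.26 and 1.0 on the log2 scale in the GFP IP (adjusted p = 0.0462 and 0.0378). Centred patterns of the rising probe and these probes differed by up to 1.78 and 2.03 on single arrays, against 0.04 for the pair of Hist1h2bk probes and 0.17 for the pair of Hist1h4d probes. Hist2h2aa2 (H2ac19, probe A_52_P571832) rose 3.37-fold in the V5 IP (adjusted p = 0.0242) and 3.56-fold in the GFP IP (adjusted p = 0.0162). It read -3.59 and -3.26 in the V5 IP, -3.59 and -3.10 in the GFP IP, -5.75 and -4.60 in the mock IP, and -5.88 and -5.44 in input. It was well above background on 1 mock array and not on the other. Hist2h2aa1, an H2A gene of the same cluster, gave -0.62 and -0.85, and neither passed, although the second did with the replicate block (adjusted p = 0.0185).

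**Figure D3:**
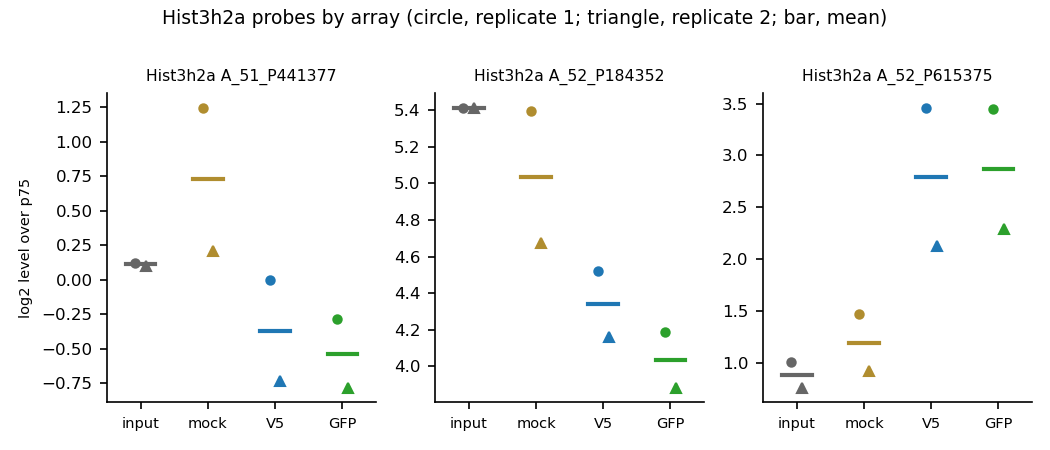
Level of the 3 Hist3h2a probes on each array, on the log2 scale relative to the array's 75th percentile (p75), with circles for replicate 1, triangles for replicate 2 and bars for the group means. A_52_P615375 lies higher in the V5 IP and GFP IP than in both controls, and the other probes lie lower there.

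Of 9 tested H2B probes, 4 fell and 1 rose in the V5 IP (17.1% and 15.3% of all probes). In the GFP IP 5 fell and 1 rose (22.5% and 17.1%). The medians were -0.86 and -1.0. With the replicate block 7 fell and 1 rose with each antibody. Of all probes, 33.2% and 20.8% did so in the V5 IP and 35.7% and 22.3% in the GFP IP. Hist1h2ba (H2bc1), an H2B gene known from testis, read 2.25 and 1.78 in the mock IP, 1.68 and 1.77 in input, 0.90 and 1.12 in the V5 IP, and 0.66 and 1.05 in the GFP IP. The DAZL IP arrays lay below all control arrays. It fell 2.01-fold in the V5 IP (adjusted p = 0.0322, kept in 2 of 8 fits with an array left out) and 2.24-fold in the GFP IP (adjusted p = 0.0174, kept in 6), with differences of -1.36 and -0.66 and of -1.60 and -0.73 within slides. Hist1h2bk probe A_51_P182358 fell by 0.89 and 1.0 on the log2 scale. The low probe of Hist1h2bc (A_52_P559748) gave 0.54 in the V5 IP and -0.10 in the GFP IP, and neither passed.

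Hist2h2be (H2bc21) was the H2B probe that rose. It read -0.73 and -0.99 in the V5 IP, -0.88 and -0.98 in the GFP IP, -2.37 and -1.54 in the mock IP, and -2.48 and -2.0 in input. The DAZL IP arrays lay above the 4 control arrays. The rise was 2.14-fold in the V5 IP (log2 1.10 ± 0.34, adjusted p = 0.0438) and 2.04-fold in the GFP IP (1.03 ± 0.34, adjusted p = 0.0457). It was 1.65 on slide 1 and 0.55 on slide 2 in the V5 IP and 1.50 and 0.56 in the GFP IP, and each call was kept in 1 of the 8 fits with an array left out. Its neighbour on chromosome 3, the H2A gene Hist2h2ac (H2ac20), read 7.11 and 6.75 in the V5 IP, 6.85 and 6.53 in the GFP IP, 8.35 and 7.45 in the mock IP, and 7.85 and 7.22 in input. It fell 2.32-fold in the GFP IP (adjusted p = 0.0389), and the 1.96-fold difference in the V5 IP did not pass (adjusted p = 0.0815) except with the replicate block (adjusted p = 0.0125). The H2A gene Hist1h2aa (H2ac1) and its neighbour Hist1h2ba, in contrast, both fell in the GFP IP (2.43-fold, adjusted p = 0.0229, for Hist1h2aa).

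Genes for H2A and H2B often lie next to each other and are transcribed away from a shared stretch. These stretches are shown for the pair that moved apart and the pair that moved together. The first is the whole 191 bases between Hist2h2ac and Hist2h2be, and the second the 250 bases before the start of Hist1h2aa, on the side of Hist1h2ba, both from the same table and printed 5′ to 3′ toward the H2A gene with the same capitals.
Hist2h2ac, chr3:96220881-96221071, minus strand: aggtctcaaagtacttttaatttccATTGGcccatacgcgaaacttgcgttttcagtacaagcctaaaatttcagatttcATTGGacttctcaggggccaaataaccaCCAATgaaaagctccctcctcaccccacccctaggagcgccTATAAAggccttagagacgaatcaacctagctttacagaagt
Hist1h2aa, chr13:23934187-23934436, plus strand: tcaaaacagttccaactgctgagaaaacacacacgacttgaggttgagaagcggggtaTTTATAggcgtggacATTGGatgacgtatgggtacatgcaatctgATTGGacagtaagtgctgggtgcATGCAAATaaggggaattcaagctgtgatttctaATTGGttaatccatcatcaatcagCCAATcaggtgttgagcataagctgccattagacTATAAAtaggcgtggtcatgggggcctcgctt
The first held 3 matches to CCAAT, 1 to TATAAA and 0 to ATTTGCAT, and the second 4, 2 and 1. These letters say nothing of how RNA was bound.

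Probes were joined by pattern where their centred levels differed by at most 0.2 on every array from at least 1 other member of a group. This put 24 of the 38 tested probes into 6 groups, of which 4 held 1 histone type and 2 held several, and the other 14 probes, 5 of the 6 H1 probes among them, joined none. The group of 7 held 5 H4 probes (both of Hist1h4d, Hist1h4f, Hist2h4 and Hist4h4) with Hist1h1d and Hist1h2ab. A group of 6 held only H2B probes (Hist1h2ba, Hist1h2bc A_51_P462311, both of Hist1h2bk, Hist1h2bm and Hist3h2bb), and a group of 5 only H2A probes (Hist1h2af A_52_P498210, Hist1h2ai, Hist1h2ak, Hist2h2aa1 and Hist3h2a A_52_P184352). Hist1h2aa paired with the other probe of Hist1h2af, Hist1h4a with Hist3h2a probe A_51_P441377, and Hist1h3d with Hist2h3c1. The closest pair of different genes, Hist1h2af and Hist1h2ak, differed by at most 0.05 on any array. Whether members of a group read the same transcripts was not tested.

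Against input, total RNA that saw no antibody, the same DAZL IP arrays gave fewer calls. In V5 IP 7 of 38 fell and 5 rose against input, beside 13.6% and 13.9% of all probes, and in the GFP IP 17 fell and 6 rose, beside 16.6% and 15.6%. With the replicate block these were 15 and 6 in the V5 IP (24.7% and 20% of all probes) and 28 and 6 in the GFP IP (27.2% and 21.6%). Both V5 arrays lay below both input arrays for 28 histone probes (40.3% of all probes) and above them for 7 (30.7%), and both GFP arrays for 29 (42%) and 7 (31.7%). The median log2 fold change of the histone probes was -0.79 in the V5 IP and -0.96 in the GFP IP, against -0.12 and -0.13 over all probes. By type the medians in the V5 and GFP IP were -1.03 and -1.08 for H1, -0.85 and -1.18 for H2A, -0.75 and -0.92 for H2B, 1.50 and 1.56 for H3, and -0.79 and -1.12 for H4. Leaving out any 1 array moved the counts called with each antibody, and the share of all probes called moved too. Most calls were lost without input 1 or input 2, where the share of all probes called fell as well. The relative medians of the types kept their sign with each array left out. After normexp, 0 fell and 0 rose in both (1.07% and 4.7% of all probes in the V5 IP, 1.45% and 4.8% in the GFP IP), and at an unadjusted p under 0.05 7 fell and 4 rose in the V5 IP and 14 fell and 4 rose in the GFP IP.

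Hist1h1b fell against input as well, 2.69-fold in the V5 IP (adjusted p = 0.0172) and 4.45-fold in the GFP IP (adjusted p = 0.00412, kept without each of the 8 arrays). Hist2h2aa2 rose 4.72-fold in the V5 IP (log2 2.24, adjusted p = 0.00965) and 4.99-fold in the GFP IP (2.32, adjusted p = 0.00721), kept in 6 and 7 of 8 fits with an array left out, although after normexp the V5 value was -0.06. Hist2h2be rose 2.60-fold and 2.48-fold (adjusted p = 0.0233 and 0.0238), and Hist3h2a probe A_52_P615375 3.77-fold and 3.97-fold (adjusted p = 0.0353 and 0.0273). Hist1h3d rose 2.83-fold (adjusted p = 0.0442) and 2.99-fold (adjusted p = 0.0331), and Hist2h3c1 rose 2.95-fold in the GFP IP (adjusted p = 0.0447), while its 2.84-fold difference in the V5 IP passed with the replicate block only (adjusted p = 0.0555 without it and 0.00425 with it). Across the 4 comparisons, 3 probes rose in each (Hist1h3d, Hist2h2aa2 and Hist2h2be) and 2 fell in each (Hist1h1b and Hist1h2bk A_51_P182358). These comparisons share arrays, and the share of all probes called in each of the 4 was not computed. The counts are thus a description only. H4 probes did not pass against input, with 6 of 7 negative in both IPs (55.8% of all probes in the V5 IP and 55.4% in the GFP IP). With the replicate block 1 fell in the V5 IP and 6 in the GFP IP (24.7% and 27.2% of all probes).

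**Figure D4:**
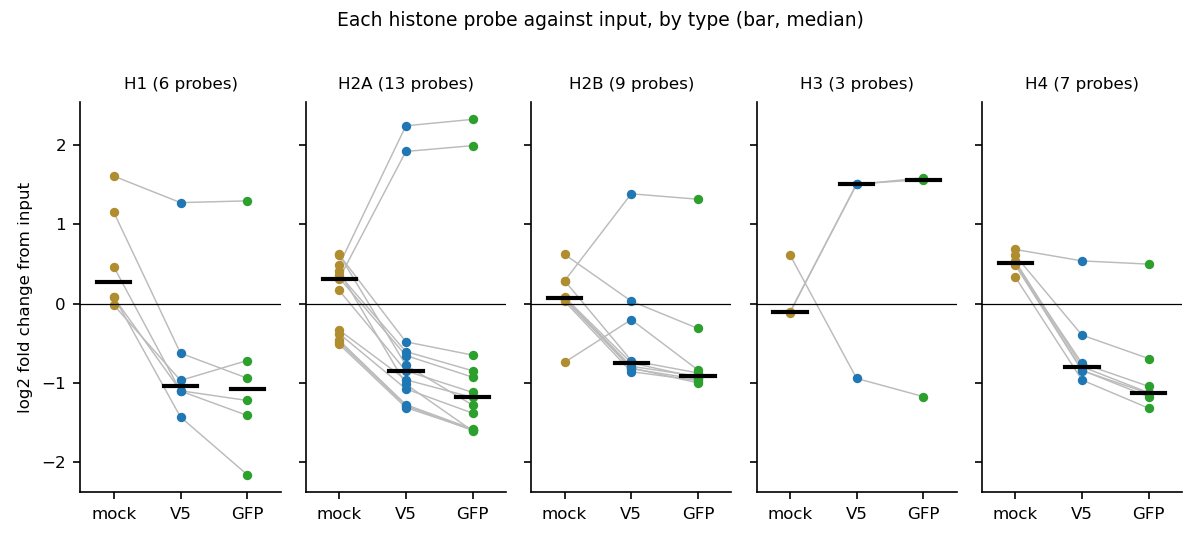
Log2 fold change from input of each tested histone probe in the mock IP, V5 IP and GFP IP, 1 line per probe and 1 panel per histone type, with the median as a black bar. In the H1, H2A, H2B and H4 panels the medians lie above 0 in the mock IP (0.07 to 0.51) and below 0 in the DAZL IPs (-0.75 to -1.18), and in the H3 panel the order is the reverse.

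Few probes passed between the mock IP and input. Of the 38 probes 2 rose (Hist1h1c and Hist1h1e, log2 1.60 and 1.15, adjusted p = 0.0278 and 0.0463) and 0 fell by limma, beside 5.34% and 4.97% of all probes, with 1 lower at an unadjusted p under 0.05, and with the replicate block 3 rose and 0 fell (18.2% and 16.1%). Both mock arrays lay above both input arrays for 7 (36.8% of all probes) and below them for 5 (30.7%). After normexp 0 rose and 0 fell (0.00712% and 0% of all probes, with 2 higher and 0 lower at an unadjusted p under 0.05). Neither rise held without input 1, input 2 or mock 1, and the share of all probes called higher fell in those fits too. Values were positive for 29 of 38 probes and negative for 9 (23.7%, against 45.2% of all probes). The median was 0.30 against 0.10 over all probes, but it differed between slides. It was 0.57 on slide 1, which holds mock 1, and -0.12 on slide 2, against 0.18 and 0.02 over all probes.

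No difference between the antibodies passed. None of the 38 probes passed between V5 IP and GFP IP by limma, nor did any of the 28104 probes (0% higher and 0% lower), and 0 of the 38 had an unadjusted p under 0.05. With the replicate block 0 histone probes passed (0.00356% and 0% of all probes), and 1 had an unadjusted p under 0.05. The log2 difference, V5 minus GFP, ran from -0.25 to 0.73, with a median of 0.26 against 0.01 over all probes. Of the 38, 32 were positive and 6 negative (15.8%, against 47.6% of all probes). Both V5 arrays lay above both GFP arrays for 6 probes (9.76% of all probes) and below them for 0 (6.84%).

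Slbp, which codes for the stem-loop binding protein, rose more than any histone probe. It read 6.48 and 5.73 in the V5 IP and 6.50 and 5.92 in the GFP IP, against 3.39 and 3.37 in the mock IP and 3.70 and 3.79 in input. The rise over the mock IP was 6.61-fold in the V5 IP (log2 2.72 ± 0.33, adjusted p = 0.00302) and 7.11-fold in the GFP IP (2.83 ± 0.33, adjusted p = 0.00247), and over input 5.12-fold and 5.51-fold (adjusted p = 0.00414 and 0.00317). All 4 calls were kept in each of the 8 fits with an array left out and with normexp (adjusted p between 0.0187 and 0.0243).

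More probes from a list for histone mRNA processing and histone supply rose than fell against the mock IP, with a smaller gap against input. The list of 45 genes includes Slbp itself, histone chaperones and cell cycle genes. Of its 82 tested probes, 23 rose and 7 fell in the V5 IP and 25 and 8 in the GFP IP against the mock IP. The median log2 fold change was 0.22 with each antibody against -0.36 over all probes. The shares that rose and fell were 28.0% and 8.54% in the V5 IP, beside 15.3% and 17.1% of all probes, and 30.5% and 9.76% in the GFP IP, beside 17.1% and 22.5%. Without mock 1, 11 of the 23 rises and 0 of the 7 falls were kept in the V5 IP and 15 of 25 and 1 of 8 in the GFP IP. Against input 15 rose and 12 fell in the V5 IP and 19 and 12 in the GFP IP (18.3% and 14.6%, and 23.2% and 14.6%, beside 13.9% and 13.6%, and 15.6% and 16.6%, of all probes), and the medians of -0.04 and 0.01 stood beside -0.12 and -0.13 over all probes. In the mock IP 1 rose and 7 fell against input (1.22% and 8.54%, beside 5.34% and 4.97% of all probes). The median there was -0.40 against 0.10 over all probes. With the replicate block the counts against the mock IP became 33 and 17 in the V5 IP (20.8% and 33.2% of all probes). In the GFP IP they became 32 and 17 (22.3% and 35.7%). Against input they became 21 and 16 in the V5 IP (20% and 24.7%) and 25 and 22 in the GFP IP (21.6% and 27.2%). Those of the mock IP against input became 7 and 26 (18.2% and 16.1%). The list and the histone members were both chosen with results of these data known, so the counts are a description. Cstf3, a subunit of the cleavage stimulation factor, read 4.26 and 3.82 in the V5 IP and 4.23 and 4.00 in the GFP IP, against 1.64 and 1.88 in the mock IP and 2.75 and 2.70 in input, and rose 4.84-fold and 5.10-fold over the mock IP (adjusted p = 0.00271 and 0.00234). A second Cstf3 probe, A_52_P376214, gave -0.85 in the V5 IP (adjusted p = 0.118) and fell by 1.18 on the log2 scale in the GFP IP (adjusted p = 0.0440). Cpsf2, a subunit of the cleavage and polyadenylation machinery that also acts on histone transcripts, was 4.09-fold and 4.39-fold higher (probe A_52_P660032, adjusted p = 0.00288 and 0.00236), and Fip1l1, of the same machinery, 4.52-fold and 5.03-fold (probe A_52_P535790, adjusted p = 0.00284 and 0.00232). Against input these probes of Cstf3 and Cpsf2 rose with both antibodies, by 2.49-fold to 2.93-fold. The Fip1l1 probe rose 1.89-fold in the GFP IP (adjusted p = 0.0290), and its 1.70-fold difference in the V5 IP did not pass (adjusted p = 0.0582). Cpsf1, of that machinery too, fell by 1.12 and 1.16 on the log2 scale, Ccne1, the cyclin of S phase entry, by 1.28 and 1.39, and Chaf1a, a chaperone subunit that places new H3 and H4 behind the replication fork, by 1.05 and 1.21.

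Replication-independent histone variants also moved in both directions. Of 23 probes for 14 such genes, 6 rose and 2 fell in the V5 IP against the mock IP. In the GFP IP 7 rose and 3 fell. With the replicate block 10 rose and 4 fell in the V5 IP (20.8% and 33.2% of all probes). In the GFP IP 11 rose and 3 fell with it (22.3% and 35.7%). Their median log2 fold changes were 0.73 and 0.87, against -0.36 over all probes in each. The shares that rose and fell were 26.1% and 8.70% in the V5 IP, beside 15.3% and 17.1% of all probes, and 30.4% and 13.0% in the GFP IP, beside 17.1% and 22.5%. Without mock 1, none of the 8 calls was kept in the V5 IP, and 1 of 7 rises (H2afy) and 1 of 3 falls (H1f0) were kept in the GFP IP. Against input 3 rose and 2 fell with each antibody (13.0% and 8.70%). Of all probes, 13.9% and 13.6% did so in the V5 IP and 15.6% and 16.6% in the GFP IP. The medians were 0.78 and 0.83 against -0.12 and -0.13. With the replicate block 9 rose and 3 fell in the V5 IP (20% and 24.7% of all probes). In the GFP IP 10 rose and 5 fell with it (21.6% and 27.2%). H3f3a, which codes for H3.3 and has a poly(A) tail, read 7.81 and 6.66 in the V5 IP, 7.77 and 6.76 in the GFP IP, 5.12 and 5.07 in the mock IP, and 6.47 and 6.36 in input (probe A_52_P76734). It rose 4.41-fold and 4.51-fold over the mock IP (adjusted p = 0.0186 and 0.0133). Against input the difference of 1.77-fold and 1.80-fold did not pass (adjusted p = 0.215 and 0.188). H2afy, which codes for macroH2A, rose 4.78-fold and 5.36-fold (probe A_52_P141583), and another of its probes, A_52_P179238, gave -0.60 and -0.51, which did not pass. H2afj, a variant of H2A, fell 2.22-fold and 2.45-fold (probe A_52_P286488). H1f0, the linker histone of resting cells, fell 1.93-fold and 2.15-fold on probe A_52_P442234, and its other probes, A_51_P511112 and A_52_P550932, gave -0.33 to -0.52, which did not pass.

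Genes of DNA replication, which are expressed in the same phase of the cell cycle, gave mixed values against the mock IP. Against input more of their probes fell than rose. Of 44 probes for 34 genes, 6 rose and 4 fell in the V5 IP and 6 rose and 9 fell in the GFP IP against the mock IP, and 4 rose and 16 fell against input in each. The shares that rose and fell against the mock IP were 13.6% and 9.09% in the V5 IP, beside 15.3% and 17.1% of all probes, and 13.6% and 20.5% in the GFP IP, beside 17.1% and 22.5%, with medians of -0.27 and -0.17 against -0.36 over all probes. Against input the shares were 9.09% and 36.4% with each antibody, beside 13.9% and 13.6% of all probes in the V5 IP and 15.6% and 16.6% in the GFP IP, with medians of -0.64 and -0.63 against -0.12 and -0.13. Without mock 1, 2 of 6 rises were kept in the V5 IP (Pola1 and Cdc6) and 3 of 6 in the GFP IP (these and Mcm4), and none of the falls against the mock IP was. With the replicate block 7 rose and 15 fell against the mock IP in the V5 IP (20.8% and 33.2% of all probes). In the GFP IP 9 rose and 16 fell with it (22.3% and 35.7%). Against input 5 rose and 22 fell with the block in the V5 IP (20% and 24.7% of all probes). In the GFP IP 7 rose and 21 fell (21.6% and 27.2%). The mock IP also read lower than input for some: 0 rose and 5 fell (0% and 11.4%, beside 5.34% and 4.97% of all probes). With the block 0 rose and 12 fell there (18.2% and 16.1% of all probes). Cdc6, which loads the replicative helicase, rose 4.28-fold and 4.87-fold over the mock IP (probe A_52_P219473; its other probe gave -0.04 and 0.05, which did not pass), and Pola1, the catalytic subunit of polymerase alpha, 3.57-fold and 3.27-fold. Mcm4, a helicase subunit, rose 2.25-fold and 2.44-fold and Orc6l, of the origin recognition complex, 3.08-fold and 3.15-fold, whereas Mcm5, of the same helicase as Mcm4, fell 2.05-fold and 2.16-fold. Tyms, thymidylate synthase, fell 1.92-fold and 2.20-fold on probe A_51_P398366, 1.91-fold and 2.17-fold on a second, and gave -0.81 and -0.92 on A_51_P375761, which did not pass.

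**Figure D5:**
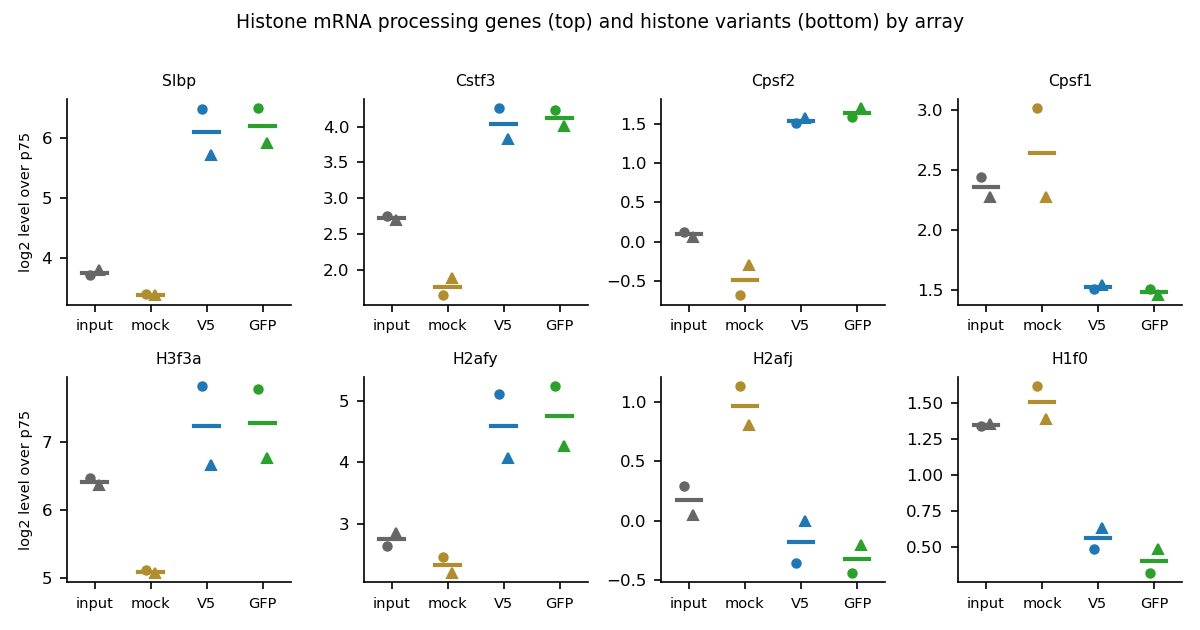
Level on each array of Slbp, Cstf3, Cpsf2 and Cpsf1 (top) and of the variants H3f3a, H2afy, H2afj and H1f0 (bottom), on the log2 scale relative to the array's 75th percentile (p75), with circles for replicate 1, triangles for replicate 2 and bars for the group means. Slbp, Cstf3, Cpsf2, H3f3a and H2afy are highest in the V5 IP and GFP IP, and Cpsf1, H2afj and H1f0 are lowest there.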

How the data were processed

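The 8 arrays (2 in each of 4 groups) were scanned in 1 colour. Spot intensity values come from Feature Extraction 9.1.3.1, which subtracted a local background and corrected spatial trends, per the file headers. The series table of signal values was normalized to the median by the authors in GeneSifter, per the file headers, and 44985 of its 45018 table entries matched a spot (tolerance 1e-05). The deposited quality score of a spot served only for that match.

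Levels are log2 processed intensity, averaged over spots that were not outliers, minus the array's 75th percentile. Group differences came from limma 3.58.1 (R 4.3.3), fitted to 28104 probes on all 8 arrays, two-sided, with Benjamini-Hochberg adjustment at 0.05. All adjusted p-values are from this fit unless another is named. Alternatives were a replicate block, normexp (offset 50), quantile normalization, centring on the median, the series table (pseudocount 0.1), no filter on dim probes, the compared groups alone, 1 probe per gene, and leaving out each array. Levels were not compared between probes.

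Deviations from group means of same-numbered arrays correlated at 0.304 to 0.776 over 6 pairs of arrays, so the numbers, which are also slides, pair the arrays. The main fit leaves this pairing out, and the replicate block uses it. A probe said not to pass may therefore pass with the block.

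The members and the other gene lists were chosen with earlier results of these data known. Named by rule were Dazl, Slbp, every tested H1 probe, of each core histone type the 2 probes with the highest and the 2 with the lowest moderated t of limma in each DAZL IP against mock IP, and of each other list the 3 called probes at either end. Other probes, among them Hist2h2ac, Hist1h2aa and second probes of a gene, were named after their values were seen. Probe names were updated through RefSeq by accession for 36 histone probes and by synonym for 8. Promoter motifs were counted in RefSeq promoter windows of GRCm38.p6, with 250 bases before each start. The fit was tested on simulated data.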

Additional observations from a re-analysis of the deposited data

How the results depend on the processing

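Counts of called histone probes moved with most settings. Counts that moved by over 1.5 times are these, with the share of all probes called the same way under that setting in brackets. With the replicate block 28 fell in the V5 IP against the mock IP (33.2%). Against input 15 fell in the V5 IP (24.7%) and 28 in the GFP IP (27.2%). After normexp 0 rose and 1 fell against the mock IP in the V5 IP (4.36% and 0.0178%) and in the GFP IP (4.52% and 0.281%). Against input 0 rose and 0 fell in the V5 IP (4.7% and 1.07%) and in the GFP IP (4.8% and 1.45%). In the mock IP 0 rose against input (0.00712%). In V5 IP against the mock IP, 6 fell with median centring (12.2%) and 3 with the authors' table (6.18%). Without the filter 3 fell (2.57%) and 2 rose (7.48%). With only the compared groups 2 fell (0.548%) and 1 rose (9.87%). In GFP IP against the mock IP, 16 fell with the authors' table (12.1%) and 11 with only the compared groups (7%). Without the filter 14 fell (9.06%) and 3 rose (9.53%). In V5 IP against input, 17 fell with quantile normalization (15.3%), 4 with median centring (11.5%), 4 with the authors' table (10.7%) and 3 without the filter (6.42%). In GFP IP against input, 10 fell with median centring (14.2%), 9 with the authors' table (13.3%) and 7 without the filter (8.41%). In mock IP against input, 1 rose with median centring (4.99%) or the authors' table (4.82%). Without the filter (0.117%) or with only the compared groups (0%), 0 rose. The cause of these moves was not tested. The median of all probes moved by over 0.1 with some scalings: in the V5 IP against the mock IP it was -0.36, -0.15 with the authors' table, -0.25 with quantile normalization and -0.47 with normexp, and in the GFP IP -0.36, -0.14, -0.23 and 0.06. Against input it was -0.12, 0.01, -0.07 and -0.54 in the V5 IP and -0.13, 0.02, -0.06 and -0.19 in the GFP IP, and in the mock IP 0.10 and, with normexp, -0.22.

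Leaving out 1 array gave 0 to 5 higher and 1 to 26 lower in the V5 IP and 0 to 5 and 2 to 27 in the GFP IP against the mock IP, 0 to 7 and 0 to 12 in the V5 IP and 0 to 7 and 1 to 24 in the GFP IP against input, 0 to 3 and 0 to 0 in the mock IP against input, and 0 to 0 in both directions between the antibodies.

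The median of each histone type, relative to that of all probes, kept its sign in all 20 results under each setting tried and with each array left out. It moved beyond the spread in 14 cases. After normexp it was -0.68 for H1 and -0.73 for H4 in the V5 IP and -1.22 for H2A and 1.52 for H3 in the GFP IP against the mock IP, -0.27 for H2A, -0.057 for H2B, 2.27 for H3 and -0.10 for H4 in the V5 IP against input, and -0.80 for H2A in the GFP IP against input. Without the filter it was -0.65 for H1 in the V5 IP against the mock IP, -0.83 for H2A in the V5 IP against input and -1.20 for H2A in the GFP IP against input. With quantile normalization it was -1.18 for H2A and -1.35 for H4 in the GFP IP against input. With 1 array left out the relative medians in the V5 IP against the mock IP ranged from -1.38 to -0.53 for H1, -0.88 to -0.049 for H2A, -0.70 to -0.33 for H2B, 1.32 to 2.46 for H3 and -1.43 to -0.42 for H4. In GFP IP they ranged from -1.65 to -0.74, -1.18 to -0.35, -0.89 to -0.49, 1.50 to 2.5 and -1.77 to -0.70. Against input they ranged in the V5 IP from -1.28 to -0.53, -0.89 to -0.61, -0.87 to -0.42, 1.03 to 2.08 and -0.99 to -0.42, and in the GFP IP from -1.31 to -0.82, -1.08 to -0.92, -1.02 to -0.59, 1.20 to 2.14 and -1.22 to -0.78.

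Single probes whose sign turned were mostly near 0 or dim. Hist1h1t in the GFP IP gave 0.25 against the mock IP with normexp, and with 1 array left out it ranged from -1.46 to 0.064 against the mock IP and from -1.48 to 0.046 against input, being above 0 without GFP 2 only. Hist1h4i against the mock IP gave 0.034 in the V5 IP and 0.0074 in the GFP IP with the authors' table. Hist1h2bc A_52_P559748 against the mock IP gave -0.43 in the V5 IP with normexp, and in the GFP IP 0.34 with normexp, 0.16 with quantile normalization, 0.083 with the authors' table, 0.058 without mock 2 and 0.25 without GFP 2, with a range of -0.44 to 0.25 over the arrays left out, and against input 0.0079 in the V5 IP with quantile normalization. In V5 IP against input, Hist2h2aa2 A_52_P571832 gave -0.065 with normexp, Fip1l1 A_52_P535790 -0.10 with normexp, and Chaf1a 0.14 with normexp, 0.11 with the authors' table and 0.13 without V5 1, with a range of -0.31 to 0.13 over the arrays left out. The replicate block ended no call of a named probe. With 2 arrays a group, the number of arrays limits the precision, and dim probes limit it further.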

Other observations

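The 6 histone probes that were not tested gave low values. Hist2h2aa2 probe A_52_P367755 was well above background on 1 of 2 arrays of the V5 IP and of the GFP IP and on none of the controls, and read -5.60 and -5.68 in the V5 IP, -5.58 and -5.05 in the GFP IP, -7.30 and -7.36 in the mock IP, and -7.34 and -7.80 in input. Each DAZL IP array lay above each control array, as for the tested Hist2h2aa2 probe. Hist1h1d probe A_51_P501260 was well above background on 1 input array. The other 4, for Hist1h1d (A_52_P660466), Hist1h2ac, Hist1h2be and Hist4h4 (A_51_P148860), were not well above background on any array.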
